A study of Mus musculus with 6 samples.

Results

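The UDP-glucuronosyltransferase (UGT), sulfotransferase (SULT) and carboxylesterase (CES) genes were taken as every protein-coding mouse gene whose symbol begins with Ugt1a, Ugt2a, Ugt2b, Sult1 to Sult5 or Ces1 to Ces5. The symbols gave 57 genes of the 54446 in the count table, 19 in each family, and 30 of them reached 10 counts in at least 3 libraries. Intestinal RNA came from 3 NEC samples and 3 control samples, all labelled wild type and collected at 96 h. NEC stands for necrotizing enterocolitis, an inflammatory bowel disease of newborns, here induced in pups by gavage of 40 µl of 33% Esbilac formula every 4 h and by stress every 12 h (99.9% nitrogen for 100 s, followed by cold at 4 °C lasting 10 min). Control pups stayed with the dam and had neither hypoxia nor cold stress. Diet, hypoxia and cold were given together, so their parts in a difference cannot be told apart. The segment of intestine, the strain, age and sex of the pups, and whether each sample is 1 animal are not stated in the labels. The p-values therefore reflect sample-to-sample spread, and some of that may be technical. Total counts ranged from 69441184 to 106304239 per library.

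These families form the conjugating and ester-cleaving part of xenobiotic and hormone metabolism. UGT enzymes sit in the endoplasmic reticulum and attach glucuronic acid from UDP-glucuronic acid to bilirubin, steroids, bile acids, phenols and drugs. SULT enzymes of the cytosol attach sulfate from the donor PAPS (3′-phosphoadenosine-5′-phosphosulfate) to phenols, catecholamines, thyroid hormones and sterols. Carboxylesterases hydrolyse ester and amide bonds in drugs, acylglycerols and acylcarnitines. The small intestine carries all these families in its enterocytes, and the conjugates leave the cell through ABC transporters.

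None of the 30 genes passed the test, edgeR's quasi-likelihood test with Benjamini-Hochberg adjustment over all 19176 genes tested at an adjusted p below 0.05. The background is small, since 0.261% of all genes tested passed in the higher direction and 0.443% in the lower. At an unadjusted p below 0.05, 8 of the 30 genes were higher in NEC and 0 lower, against 7.61% and 7.99% of all genes tested. DESeq2 called 6 genes higher in NEC and 0 lower, namely Sult1a1, Ugt2b35, Ces2c, Sult5a1, Ugt1a9 and Sult2b1, against 3.66% and 3.94% of all genes called higher and lower by DESeq2. The one gene called by limma-voom was Sult1a1, against 0.261% and 0.527% of all genes called higher and lower by that tool. The phenol sulfotransferase gene Sult1a1 came nearest to the edgeR threshold.

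All 3 NEC libraries lay above all 3 control libraries in 7 of the 30 genes, namely Ugt1a9, Ugt2b35, Sult1a1, Sult5a1, Sult2b1, Ces2c and Ces1g, and below them in 2, Sult1b1 and Ces2e. Of all genes tested, 10.8% had NEC above and 11.6% had NEC below. The median log2 fold change of the 30 genes was 0.46, against 0.026 for all genes tested, and 21 of 30 values were positive, against 51.9% of all genes tested. That median was 1.003 without control replicate 2. The medians by family were 0.50 for 12 UGT genes, 1.05 for 7 SULT genes and -0.20 for 11 CES genes. Fold changes are NEC over control, so positive values are higher in NEC, and levels are CPM, counts relative to each library's TMM-adjusted total. In whole tissue, fewer cells of a type and less RNA per cell cannot be told apart.

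**Figure D1:**
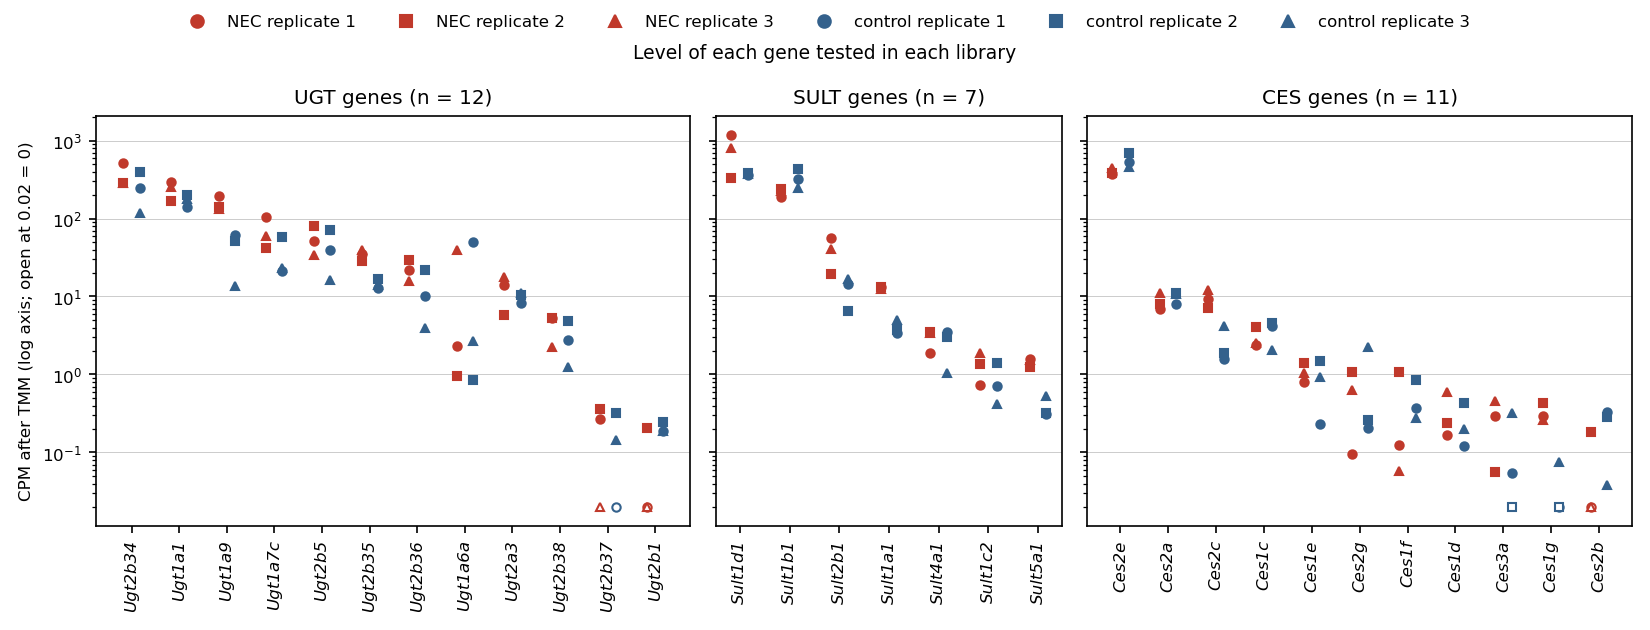
CPM after TMM scaling on a log axis for each of the 30 genes tested, 1 point per library, with red NEC libraries left of blue control libraries and open points at the foot of the axis for a count of 0. Sult1d1, Ces2e, Ugt2b34, Sult1b1 and Ugt1a1 stand at the top of their families, and Ugt1a6a spreads widely within both groups.

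Levels between genes were compared per length. Per kilobase of exon, Sult1d1 averaged 316 CPM in NEC and 152 CPM in control. On that scale Ces2e had 148 CPM in NEC and 206 CPM in control, Ugt1a1 had 107 and 78.2 CPM in NEC and control, and Sult1b1 had 78.2 CPM in NEC and 120.2 CPM in control. Ugt2b34 averaged 84.1 CPM per kilobase in NEC and 58.5 CPM per kilobase in control. Of the 27 genes not tested, 16 had no count in any library, among them the hepatic Sult2a1 to Sult2a7, both Sult3a genes, Sult1c1, Ces1a, Ces1h, Ces4a, Ugt1a8, Ugt1a10 and Ugt2a2. The other 11 held between 4 and 67 counts over all 6 libraries, the highest being Ces3b.

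The 9 Ugt1a genes share 1 locus on chromosome 1, plus strand, where each gene has its own first exon and all splice it to a common set of later exons. Ugt1a1 spans chr1:88211959-88218997 and Ugt1a9 chr1:88070800-88218997 in GENCODE M21 on mm10, and both end at the same base. The junctions of the 4 Ugt1a genes with appreciable counts are printed to show which letters can tell these 4 genes apart. Lower case marks the last 30 bases of the gene's own exon and capitals mark the first 30 bases of the common exon at chr1:88215044-88215175, from GENCODE transcripts.
Ugt1a1: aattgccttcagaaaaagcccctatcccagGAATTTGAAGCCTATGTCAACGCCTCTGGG
Ugt1a9: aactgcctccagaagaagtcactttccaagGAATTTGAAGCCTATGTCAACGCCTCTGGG
Ugt1a7c: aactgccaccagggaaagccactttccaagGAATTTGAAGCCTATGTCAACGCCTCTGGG
Ugt1a6a: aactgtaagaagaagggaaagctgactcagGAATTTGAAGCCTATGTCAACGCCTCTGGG
The capitals are the same in all 4 lines, while the letters before them differ. The lower-case letters of Ugt1a6a are also those of Ugt1a6b, so they cannot tell Ugt1a6a from Ugt1a6b, which held 13 counts over all libraries. Of the stretches of 150 bases, the read length, in the annotated transcripts of Ugt1a1, 74.5% also occur in transcripts of other genes. That share was 57.5% for Ugt1a9, 49.9% for Ugt1a7c and 49.1% for Ugt1a6a, so how counts were split among these genes depends on the counting method, which is not stated.

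Summed over the locus, which removes the split among genes but not an effect of how shared reads were kept or dropped, the Ugt1a genes held 596, 350.5 and 484 CPM in NEC replicates 1 to 3. The control sums were 275, 312 and 218 CPM, all below the lowest NEC sum, with means of 477 ± 123 CPM in NEC and 268 ± 47.5 CPM in control (SD, n = 3 each). Ugt1a9, a phenol-conjugating enzyme gene in humans, had 195, 142 and 134 CPM in NEC and 61.1, 51.6 and 13.7 CPM in control. The groups did not overlap, and edgeR gave 1.90 on the log2 scale (SE 0.51, 95% interval 0.70 to 3.09, adjusted p = 0.139). Ugt1a9 took 32.8%, 40.6% and 27.7% of the locus in NEC replicates 1 to 3, against 22.2%, 16.5% and 6.31% in control replicates 1 to 3. Its share was therefore higher in every NEC library than in any control library.

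Ugt1a1, the bilirubin-conjugating gene and the largest of the locus, had 294, 165 and 252 CPM in NEC and 141, 202 and 178 CPM in control. NEC replicate 2 lay within the control values, and the log2 fold change was 0.45 (SE 0.28, 95% interval -0.21 to 1.11, edgeR adjusted p = 0.508). Ugt1a7c had 105, 41.8 and 59.4 CPM in NEC and 21.5, 57.7 and 23.2 CPM in control, and the groups overlapped through control replicate 2 (log2 fold change 1.01, SE 0.49). Ugt1a6a, a gene for conjugation of small phenols, was high in 1 library of each group. It stood at 39.2 CPM in NEC replicate 3 and at 2.30 CPM or less in the other NEC libraries, and at 50.6 CPM in control replicate 1 and 2.69 CPM or less in the other control libraries. Its log2 fold change of -0.35 has an interval from -4.16 to 3.46.

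**Figure D2:**
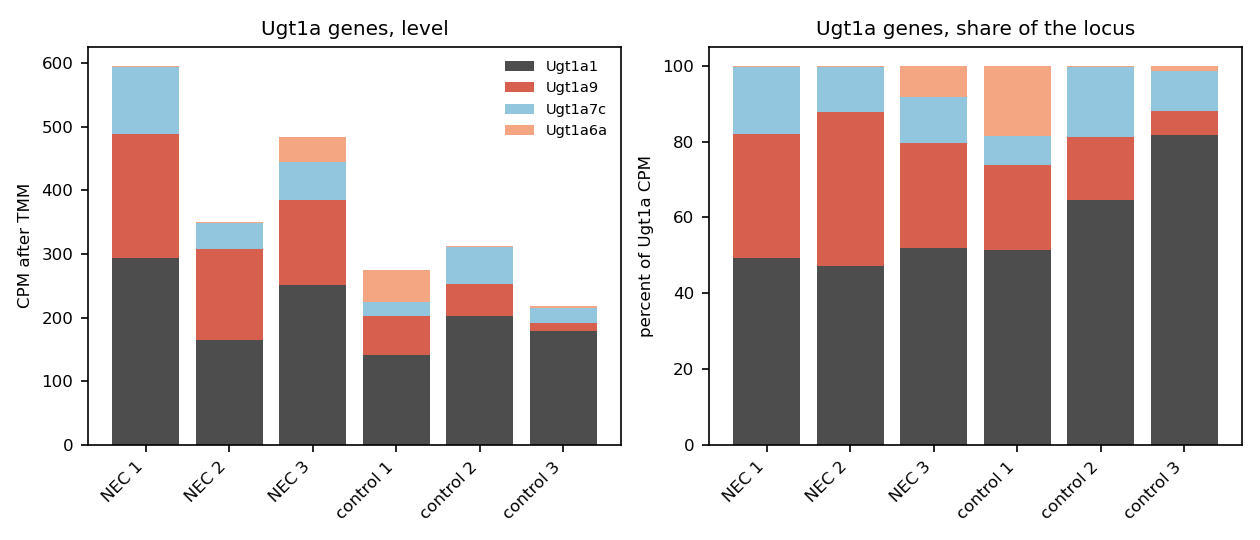
Stacked bars of the 4 Ugt1a genes with appreciable counts in each library, as CPM after TMM (left) and as percent of the summed Ugt1a CPM (right), with the 3 NEC libraries left of the 3 control libraries. The red Ugt1a9 segment is 27.7% to 40.6% of the locus in NEC and 6.31% to 22.2% in control, and Ugt1a6a appears mainly in NEC replicate 3 and control replicate 1.

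The Ugt2b genes form a second cluster, on chromosome 5, whose members conjugate steroids, bile acids and fatty acids. Ugt2b35 (chr5:87000860-87013275, plus strand) had 35.4, 28.6 and 39.1 CPM in NEC and 12.9, 16.996 and 13.9 CPM in control. Every NEC library was above every control library by a clear gap, and the log2 fold change was 1.24 (SE 0.25, 95% interval 0.67 to 1.81, edgeR adjusted p = 0.0760). None of its stretches of 150 bases occurs in another gene's transcripts. The most abundant member, Ugt2b34, had 519, 281 and 287 CPM in NEC and 245, 396 and 116 CPM in control, so the groups overlapped through control replicate 2 (log2 fold change 0.52, SE 0.46). With NEC replicate 1, control replicate 3 or control replicate 2 left out, its log2 fold change was 0.17, 0.18 or 1.003.

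Several Ugt2b genes had their lowest value in control replicate 3. Ugt2b36 had 21.6, 29.3 and 15.8 CPM in NEC and 10.3, 21.7 and 3.97 CPM in control (log2 fold change 0.89, SE 0.57), and its log2 fold change was 0.47 without control replicate 3 and 1.64 without control replicate 2. Ugt2b38 had 5.34, 5.33 and 2.27 CPM in NEC and 2.78, 4.83 and 1.24 CPM in control (log2 fold change 0.55, SE 0.57), with a log2 fold change of 0.18 without control replicate 3 and 1.10 without control replicate 2. For Ugt2b5 the mean was 55.1 ± 22.9 CPM in NEC and 42.0 ± 27.4 CPM in control, and 19.5% of its stretches of 150 bases are shared with Ugt2b38. Ugt2b1 was near the floor, at 0.203 CPM in NEC replicate 2 and 0 in the other NEC libraries, against 0.190 to 0.244 CPM in control. The remaining UGT genes tested were Ugt2a3, with a log2 fold change of 0.34, and the rare Ugt2b37, with 0.48.

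Within the sulfotransferases, Sult1a1 (chr7:126672865-126676432, minus strand), which sulfates phenols, had a narrow spread among the NEC libraries. It stood at 13.2, 13.3 and 12.5 CPM in NEC and at 3.37, 3.76 and 4.95 CPM in control. The NEC libraries were close together and all above control, with means of 13.0 ± 0.427 CPM in NEC and 4.03 ± 0.825 CPM in control. The log2 fold change was 1.69 (SE 0.28, 95% interval 1.03 to 2.34, edgeR adjusted p = 0.0507). Sult1a1 shares 4.05% of its exonic bases with Sgf29 on the opposite strand, which had 10.4, 10.9 and 10.7 CPM in NEC and 4.10, 5.47 and 4.63 CPM in control. Both genes thus had higher counts in every NEC library. None of the stretches of 150 bases of Sult1a1 occurs in another gene's transcripts on either strand. The overlap with Sgf29 is shorter than 150 bases, so that search could not have found it. Since the strand setting is not stated, how reads that reach into the overlap were assigned is not known.

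Sult5a1, a low-level member, had 1.57, 1.25 and 1.55 CPM in NEC and 0.313, 0.316 and 0.532 CPM in control (log2 fold change 1.90, SE 0.47, edgeR adjusted p = 0.114). Sult2b1, a sulfotransferase gene for cholesterol and pregnenolone, had 56.2, 19.3 and 40.8 CPM in NEC and 14.4, 6.51 and 16.6 CPM in control (log2 fold change 1.63, SE 0.48, edgeR adjusted p = 0.170). Neither gene overlapped between the groups, although for Sult2b1 the gap between NEC replicate 2 and control replicate 3 was narrow. Sult2b1 shares 8.13% of its exonic bases with Lmtk3 and Gm31597 on the opposite strand, which had at most 0.627 CPM in any library.

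Sult1d1 and Sult1b1, neighbours on chromosome 5, are the abundant intestinal sulfotransferase genes, and their values went in opposite directions. Sult1d1, which sulfates catecholamines in mice, had 1190.2, 333 and 809 CPM in NEC and 366, 388 and 368 CPM in control. NEC replicate 2 was below every control library, so the groups overlapped, and the log2 fold change was 1.05 (SE 0.43, 95% interval 0.05 to 2.05, edgeR adjusted p = 0.295). It was 0.61 without NEC replicate 1. Sult1b1, which sulfates thyroid hormones and phenols, had 188, 240.3 and 224 CPM in NEC and 323, 430.4 and 249.6 CPM in control. Every NEC library was below every control library, by a narrow gap at control replicate 3 (log2 fold change -0.62, SE 0.27, edgeR adjusted p = 0.325). Sult1b1 made up 13.5%, 40.8% and 21.4% of the summed Sult1 CPM in NEC and 46.6%, 52.2% and 40.0% in control, so NEC replicate 2 reached into the control range. The low-level Sult1c2 had 0.734, 1.38 and 1.90 CPM in NEC and 0.709, 1.41 and 0.418 CPM in control (log2 fold change 0.66, SE 0.60). Sult4a1, known from brain, averaged 2.92 ± 0.920 CPM in NEC and 2.52 ± 1.30 CPM in control, and both genes overlapped between the groups.

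The carboxylesterases lie on chromosome 8, and Ces2e (chr8:104926260-104934672, plus strand) made up 94.9% to 95.9% of the summed Ces2 CPM in NEC and 96.3% to 98.1% in control. Ces2e had 373, 384 and 443 CPM in NEC and 523, 690.3 and 457 CPM in control. All NEC values were below all control values, with a narrow gap between NEC replicate 3 and control replicate 3 (log2 fold change -0.48, SE 0.25, 95% interval -1.06 to 0.10, edgeR adjusted p = 0.412). Ces2c (chr8:104847068-104854483, plus strand), an acylcarnitine and acylglycerol hydrolase gene in mice, went the other way. It had 9.15, 7.02 and 12.3 CPM in NEC and 1.59, 1.90 and 4.14 CPM in control, without overlap (log2 fold change 1.89, SE 0.46, 95% interval 0.84 to 2.95, edgeR adjusted p = 0.113). Ces2c was 1.75% to 2.63% of the summed Ces2 CPM in NEC and 0.269% to 0.873% in control, and 2.84% of its stretches of 150 bases also occur in the pseudogenes Ces2d-ps and Gm8798.

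**Figure D3:**
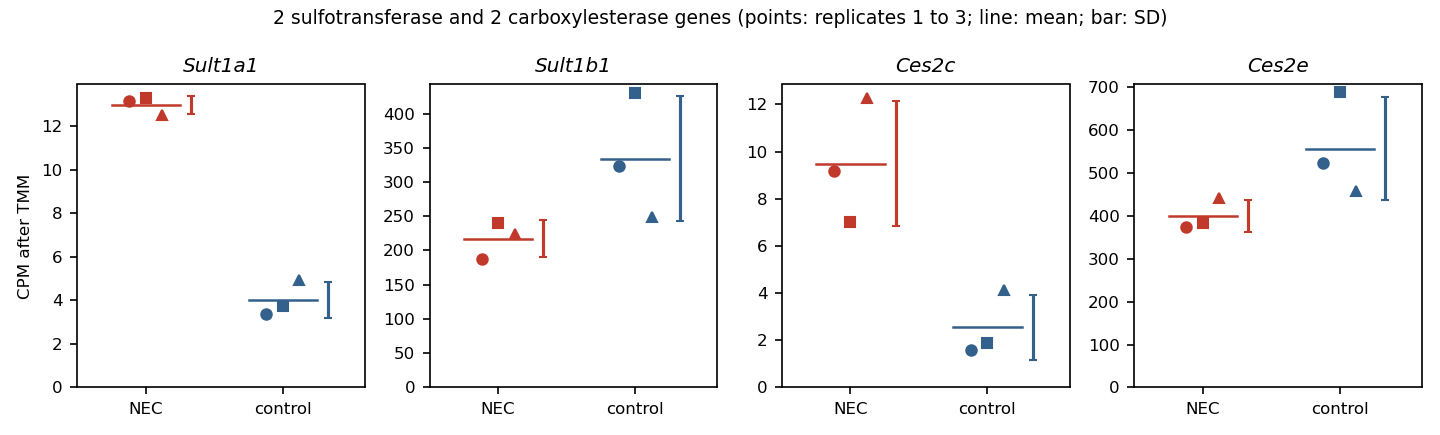
CPM after TMM for Sult1a1, Sult1b1, Ces2c and Ces2e, with red NEC libraries left of blue control libraries, a circle, square and triangle for replicates 1 to 3, a line at the mean and a bar of 1 SD on each side beside it. NEC values are above all control values for Sult1a1 and Ces2c and below them for Sult1b1 and Ces2e, and each axis starts at 0.

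The other carboxylesterase genes overlapped between the groups, except Ces1g. Ces1g, a lipid-hydrolysing esterase gene of liver and intestine, had 28, 38 and 18 counts in NEC and 0, 0 and 8 counts in control, or 0.294, 0.429 and 0.259 CPM in NEC and at most 0.0760 CPM in control (edgeR adjusted p = 0.250). At these counts its log2 fold change of 3.47 (95% interval 0.54 to 6.40) depends on the prior count, and it was 2.98 without control replicate 1 and 7.70 without control replicate 3. Ces2a had 6.92, 8.07 and 11.005 CPM in NEC and 8.12, 11.034 and 10.8 CPM in control (log2 fold change -0.20, SE 0.30). Ces1c, the plasma esterase gene of mice, had 2.39, 4.12 and 2.53 CPM in NEC and 4.14, 4.60 and 2.05 CPM in control (log2 fold change -0.25, SE 0.43).

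Ces2g, Ces2b and Ces3a stayed at or below 2.28 CPM in every library. Ces2g had 0.0944, 1.08 and 0.632 CPM in NEC and 0.204, 0.259 and 2.28 CPM in control, a spread of more than 10-fold in each group. Ces2b had 0.181 CPM in NEC replicate 2 and 0 in the other NEC libraries, against 0.327, 0.287 and 0.0380 CPM in control. Ces3a had 0.294, 0.0564 and 0.460 CPM in NEC and 0.0545, 0 and 0.323 CPM in control. The log2 fold changes of Ces1d, Ces1e and Ces1f were 0.39, 0.30 and -0.24. The family median of -0.20 became positive without NEC replicate 1 (0.33), control replicate 2 (0.44) or control replicate 3 (0.27).

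**Figure D4:**
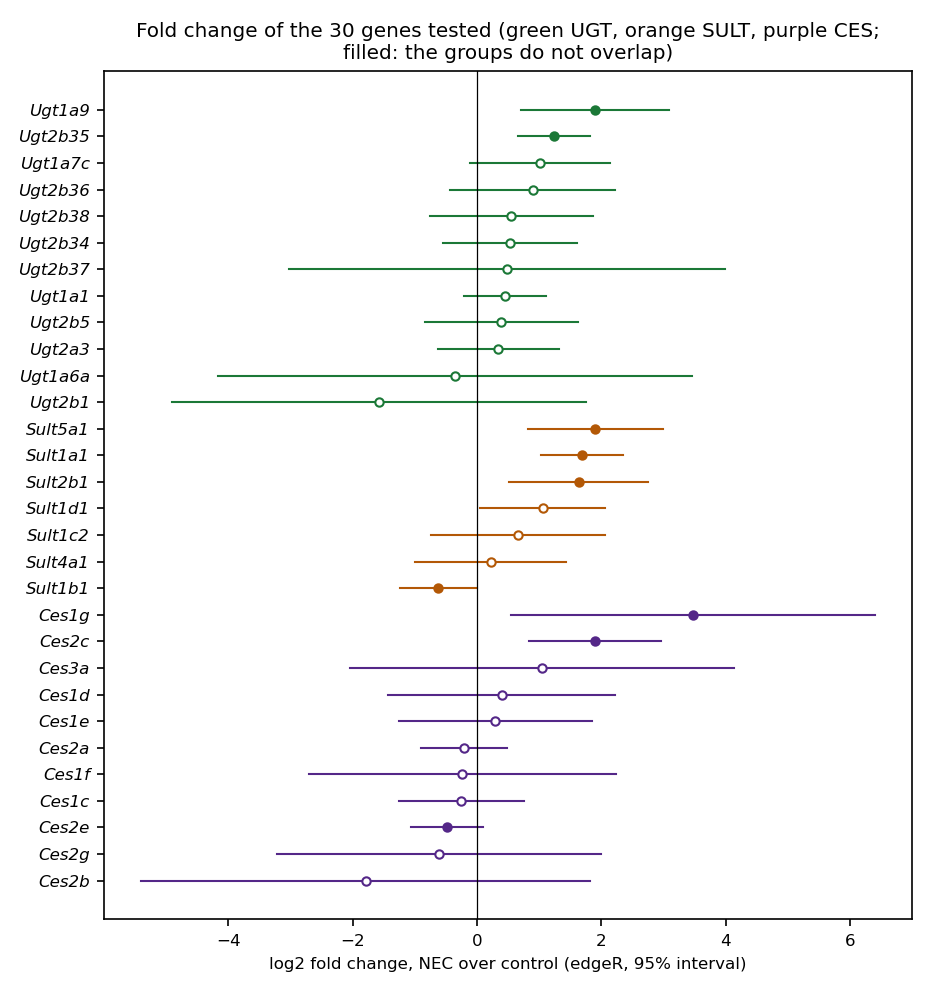
Log2 fold change of NEC over control from edgeR with its 95% interval for the 30 genes tested, grouped as UGT (green), SULT (orange) and CES (purple), with filled points where the groups do not overlap. Filled points lie right of 0 for Ugt1a9, Ugt2b35, Sult5a1, Sult1a1, Sult2b1, Ces1g and Ces2c and left of 0 for Sult1b1 and Ces2e.

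The sample codes in the labels begin with AG181017 in 4 samples and with AG181028 in 2, NEC replicate 1 and control replicate 3, and what the code stands for is not stated. Log2 ratios of mean CPM within the AG181017 samples and within the AG181028 pair were 1.29 and 3.83 for Ugt1a9, 1.18 and 1.35 for Ugt2b35, and 1.85 and 1.41 for Sult1a1. They were 2.47 and 1.14 for Ces2c, 2.16 and 1.56 for Sult5a1, 1.52 and 1.76 for Sult2b1, -0.70 and -0.41 for Sult1b1, and -0.55 and -0.29 for Ces2e. For Ugt2b34 the values were -0.17 and 2.16, opposite in sign, and the AG181028 pair has 1 sample a group and no test. Of 27 genes with a finite ratio in both codes, 15 were higher in NEC in both, 5 were lower in both and 7 went in opposite directions, 5 of the 7 being carboxylesterases.

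RefSeq promoters (GRCm38.p6, 250 bases before to 50 after the start) were found for 25 of the 30 genes and searched on both strands for motifs known from drug-metabolism genes, of which 3 are given here. The xenobiotic response core GCGTG lies in the promoters of 3 of these genes, Sult1b1, Sult1d1 and Sult2b1, against 32.4% of all 32851 promoters. The antioxidant response core TGACNNNGC lies in 0 of the 25, against 12.4% of all promoters. The HNF4 motif CAAAGTCCA lies in the promoter of Sult1b1 alone, against 0.475% of all promoters. A match describes letters in this window and is not evidence of binding.

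Other genes of the same pathways were taken from lists chosen with earlier results of these data known. Among the hydrolases outside the carboxylesterase family, 1 of 11 tested passed, in the lower direction, against 0.443% of all genes tested. Aadac, which deacetylates arylacetamide drugs in the endoplasmic reticulum, fell to 41.1, 79.8 and 53.5 CPM in NEC, against 266, 315 and 229 CPM in control (log2 fold change -2.22, SE 0.31, edgeR adjusted p = 0.0378). Pon3, a lactonase gene, had a log2 fold change of -1.21 (SE 0.22) and Ephx2, the soluble epoxide hydrolase gene, of -1.06 (SE 0.28), and neither passed. The list median log2 fold change was -0.49, with 2 of 11 values positive. Of 5 genes listed as deconjugating enzymes, 4 were tested, and the steroid sulfatase gene Sts was not in the count table. The lysosomal sulfatase gene Arsg fell to 19.5, 22.5 and 19.3 CPM in NEC, against 107, 73.5 and 122 CPM in control (log2 fold change -2.30, SE 0.26, edgeR adjusted p = 0.0233). The arylsulfatase genes Arsb and Arsa had log2 fold changes of -0.75 (SE 0.27) and 0.076 (SE 0.330). Whether these sulfatases act on the conjugates that SULT enzymes make was not tested. The glucuronidase gene Gusb had 348 ± 68.1 CPM in NEC and 353 ± 60.0 CPM in control (SD, n = 3 each).

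Both calls were lost in most fits that left out 1 library. Every such fit called fewer genes of all tested than the 135 called with all libraries, down to 0 without control replicate 1. These losses therefore do not show that a call rested on 1 library. With NEC replicate 1 or 3 left out, the edgeR adjusted p of Aadac was 0.0850 or 0.183, and with control replicate 1, 2 or 3 left out it was 0.206, 0.0597 or 0.0627. With library-size scaling it was 0.0545. For Arsg it was 0.0773 or 0.148 with NEC replicate 1 or 3 left out, and 0.158 or 0.0536 with control replicate 1 or 3 left out. The log2 fold changes stayed between -2.52 and -2.02 for Aadac and between -2.49 and -2.15 for Arsg over the 6 fits that left out 1 library.

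Genes that supply the cofactors did not pass the test. In UDP-glucuronic acid supply 0 of 7 passed and the median log2 fold change was 0.32, with 1.10 (SE 0.30) for Uxs1, which turns UDP-glucuronic acid into UDP-xylose, and 0.14 for Ugdh, which makes UDP-glucuronic acid. The phosphoglucomutase genes Pgm2 and Pgm1 had 0.72 (SE 0.32) and 0.43 (SE 0.23). In PAPS and sulfate supply 0 of 12 passed and the median was -0.26. There the sulfate transporter gene Slc13a4 had 0.430, 0.824 and 0.747 CPM in NEC and 4.97, 1.81 and 5.05 CPM in control (log2 fold change -2.56, SE 0.53, edgeR adjusted p = 0.0838). The sulfate transporter gene Slc26a2 had a log2 fold change of 1.02 (SE 0.42) and the phosphatase gene Impad1 of 0.51 (SE 0.21). Of the donor synthases, Papss1 had 0.72 (SE 0.36) and Papss2 -0.15 (SE 0.32).

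Of 12 transporter genes for conjugates and related compounds, 0 passed, the median was 0.78 and 9 values were positive. NEC was above control without overlap in 5 of the 12 and below in 1, against 10.8% and 11.6% of all genes tested. Abcc2, which exports glucuronides across the apical membrane, had 2704, 896 and 1282 CPM in NEC and 732, 750.1 and 702 CPM in control (log2 fold change 1.16, SE 0.41, edgeR adjusted p = 0.241). NEC replicate 1 was the highest by far. The drug efflux pump gene Abcb1a had 495, 151 and 169 CPM in NEC and 82.5, 59.1 and 117 CPM in control (log2 fold change 1.66, SE 0.51), and Abcc6 had 13.7, 17.3 and 11.9 CPM in NEC and 69.9, 27.9 and 98.0 CPM in control (log2 fold change -2.19, SE 0.45). Abcc5 had a log2 fold change of 1.01 (SE 0.33).

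Among 21 transcriptional regulators 0 passed, with a median log2 fold change of -0.075 and 8 positive values. The xenobiotic receptor genes Nr1i2, Nr1i3 and Ahr had log2 fold changes of -0.36, -0.35 and -0.18, with overlapping groups. The oxysterol receptor gene Nr1h3 had 11.5, 12.3 and 12.5 CPM in NEC and 27.5, 23.3 and 25.9 CPM in control (log2 fold change -1.08, SE 0.23, edgeR adjusted p = 0.0838). The enterocyte maturation repressor gene Prdm1 had 53.1, 57.4 and 50.1 CPM in NEC and 106.4, 119 and 105 CPM in control (log2 fold change -1.04, SE 0.20, edgeR adjusted p = 0.0688). Hnf4a had a log2 fold change of -0.57 (SE 0.24), without overlap. In a list of other conjugating enzymes, 0 of 10 tested passed and the median was -0.13, with -1.55 (SE 0.63) for Sult6b1, -1.37 (SE 0.57) for the glycine acyltransferase gene Glyat and -0.73 (SE 0.32) for the arsenic methyltransferase gene As3mt.

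**Figure D5:**
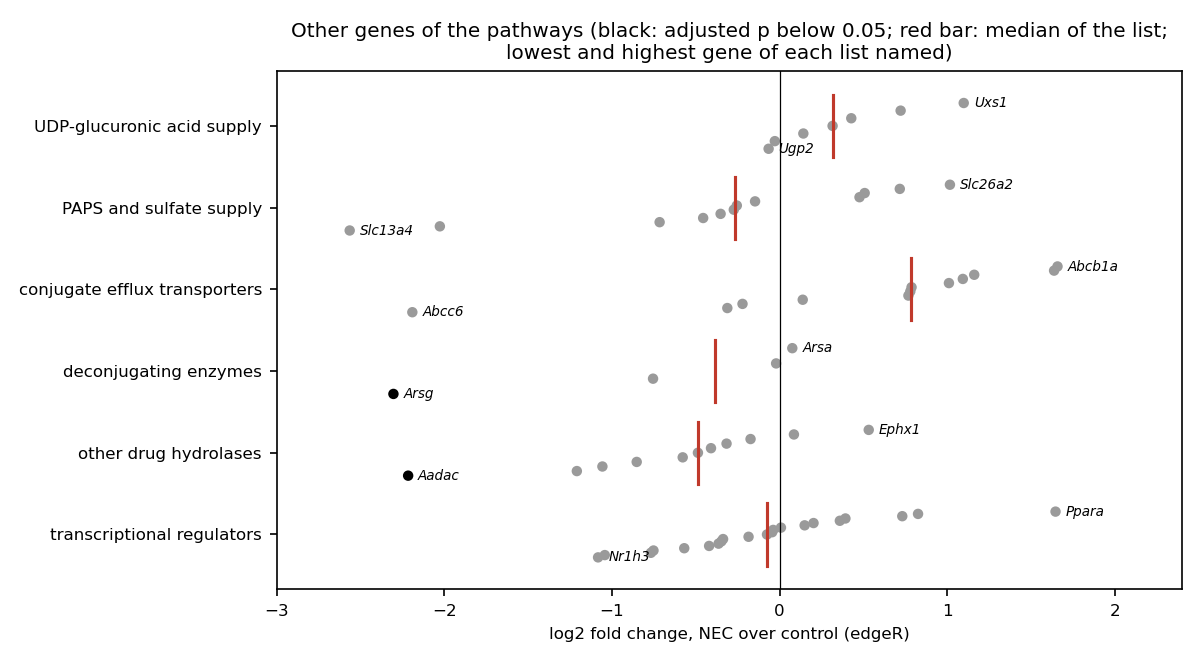
Log2 fold change of NEC over control for each gene tested in 6 pathway lists, 1 point per gene, black where the adjusted p is below 0.05, with a red bar at the list median and the lowest and highest gene named. Arsg and Aadac are the black points, both left of 0, and the medians are 0.78 for conjugate efflux transporters and -0.49 for other drug hydrolases.

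The tissue label was checked against markers, and their part in the differences above was not tested. Of 15 enterocyte and epithelial markers 0 passed, 6 had positive values, and the median log2 fold change was -0.12. Their summed level was 16536 to 27048.7 CPM in NEC and 20844.3 to 27174.6 CPM in control, with Epcam at 1833 to 2720 CPM in NEC and 2234 to 2953 CPM in control. Single markers moved in both directions. Krt19 and Krt8 were above every control library in every NEC library, with log2 fold changes of 1.56 (SE 0.34) and 0.41 (SE 0.25). The other epithelial markers overlapped between the groups, among them Fabp1, with a log2 fold change of -1.82 (SE 0.71). Hepatocyte markers, of which 14 of 16 were tested and 0 passed, summed to 67.3 to 82.7 CPM in NEC and 107 to 419 CPM in control. Most of that gap was Serpina1a, at 5.67, 3.88 and 16.005 CPM in NEC and 239, 18.4 and 330.5 CPM in control. Without it, left out after its values were seen, the sums were 51.3 to 78.8 CPM in NEC and 65.2 to 89.0 CPM in control, which overlap. Alb was at or below 0.201 CPM except for 21.8 CPM in NEC replicate 1 and 25.9 CPM in control replicate 3, the AG181028 pair. Stromal and muscle markers summed to 1147 to 4493 CPM in NEC and 1282 to 2316 CPM in control, with 0 of 11 passing, and their median log2 fold change was 0.34. Leukocyte markers summed to 161 to 262 CPM in NEC and 276 to 364 CPM in control, with 0 of 10 passing, and the sum was held mostly by the macrophage receptor gene Csf1r. Without Csf1r, left out after its values were seen, they summed to 46.2 to 112 CPM in NEC and 28.4 to 44.5 CPM in control. The median log2 fold change of the leukocyte markers was 0.52 with 7 of 10 positive, and S100a8, S100a9 and Cd68 were above every control library in every NEC library, with log2 fold changes of 5.22, 4.81 and 1.31.

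Of 8 markers of intestinal position tested 0 passed, and the whole list summed to 503 to 697 CPM in NEC and 1270.2 to 1624 CPM in control. The list holds proximal and distal genes, and most of the sum was the iron exporter gene Slc40a1, so the sum does not measure position. Slc40a1 had 406, 635 and 411 CPM in NEC and 1249, 1170.4 and 1346 CPM in control. The proximal gene Cybrd1 had 5.86, 15.6 and 9.47 CPM in NEC and 68.3, 28.3 and 83.8 CPM in control. The proximal genes Gata4 and Onecut2 overlapped between the groups, with log2 fold changes of -0.75 (SE 0.52) and -2.34 (SE 1.32). The ileal bile acid transporter gene Slc10a2 had 4.50, 1.82 and 0.474 CPM in NEC and at most 0.230 CPM in control. The other ileal gene of the list, Fabp6, had 5.90, 8.43 and 1.42 CPM in NEC and 1.04, 20.9 and 0 CPM in control, with overlapping groups (log2 fold change -0.47, SE 1.69). Hoxd13 and Hoxb13, distal genes, were at 0 in every library. The part of intestinal position in the UGT, SULT and CES values was not tested. Xist stood at 0.546 CPM or below in NEC and at 179, 344 and 1.17 CPM in control replicates 1 to 3. The Y-linked gene Ddx3y stood at 25.6, 44.8 and 35.1 CPM in NEC and at 19.8, 1.29 and 30.9 CPM in control, so control replicate 1 had counts of both genes. By Xist and Ddx3y the groups were not balanced for sex, and the part of sex in the UGT, SULT and CES values was not tested. Without control replicates 1 and 2 the median of the members tested was 1.08 and 0 were called. That comparison leaves 1 control library, and 1 gene of all tested was called in it, so the count of 0 carries no information on these families.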

How the data were processed

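RNA of 3 NEC and 3 control intestines was sequenced as 150 bp read pairs, per the labels' protocols. The authors deposited whole-number counts per gene, and mm10 is the build in the submitters' processing notes. No source used here names the aligner, counter, annotation or strand setting. Symbols, types and positions came from GENCODE M21 on mm10, which left 37 identifiers of 54446 without a symbol. Low counts from 5 to 30 were 1.66 times as frequent at multiples of 4 as at other values.

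Genes kept by filterByExpr (minimum count 10) numbered 19176. The test was edgeR's (version 4.0.16, R 4.3.3), with TMM scaling, robust dispersions, the quasi-likelihood F test and Benjamini-Hochberg adjustment over all of them. DESeq2 1.42.0 and limma-voom (limma 3.58.1) were alternatives, with other scalings, filters, covariates and each library left out. CPM is counts relative to each library's TMM-adjusted total, and SD is over 3 libraries. No 2 libraries of a group agreed within sampling noise. Genes given in every library were those with the smallest p (up to 8 UGT, 6 SULT and 8 CES) and the 3 most abundant of each family. Of each pathway list, called genes and up to 3 with the smallest p were named, and others (Ugdh, Papss1, Papss2, Gusb, Abcc2, Nr1i2, Nr1i3, Ahr) for their role after their values were seen. The members and lists were chosen with earlier results of these data known. Results for 1 withheld item are not reported here.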

Additional observations from a re-analysis of the deposited data

How the results depend on the processing

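No gene of the 3 families was called lower under any alternative run. The count of genes called higher was 6 with DESeq2, and 1 with RLE scaling, every gene kept whatever its count, a minimum of 50 counts in 3 or more libraries, limma-voom, robust=FALSE or the sample code as a term, the 1 gene being Sult1a1 each time. Against these counts, the genes of all tested called in either direction numbered 1452 with DESeq2, 141 with RLE scaling, 247 with every gene kept, 186 with the minimum of 50, 151 with limma-voom, 151 with robust=FALSE and 244 with the sample code, beside 135 as reported. The count for these families was 0 with library-size scaling, within the AG181017 samples, with the replicate number as a block, in all 6 fits that left out a library, and without both libraries with Xist counts. In those fits the calls over all genes were 111, 25 and 70, in that order. With NEC replicate 1, 2 or 3 left out they were 34, 101 or 3, and with control replicate 1 or 3 left out 0 or 25. Without the Xist libraries 1 gene was called, and the 1 control sample that remains is assumed to vary like the NEC samples. Where few or no genes were called, a count of 0 says nothing on these families. The low-count filter was recomputed for each design and set of libraries, so 30 to 33 members entered these fits, and 41 and 22 entered with no filter and with the minimum of 50. Ces1g, Ces2b, Ces2g, Ces3a and Ugt2b1 have no value under settings whose filter removed them. The median log2 fold change over members ran from 0.42 to 1.003 with 1 library left out, that of UGT genes from 0.31 to 1.05, that of SULT genes from 0.95 to 1.42 and that of CES genes from -0.17 to 0.44. Without both libraries with Xist counts these medians were 1.08, 1.604, 1.31 and 0.55. The SULT median was 0.87 with limma-voom, 0.88 with the replicate block and 0.60 within the AG181017 samples, and the CES median was 0.083 with the replicate block, 0.29 with the sample code and 0.48 within the AG181017 samples. The cause of these shifts was not tested. Deviations of samples with the same replicate number correlated at -0.16, 0.37 and -0.013, so the numbers gave no clear sign of pairing. NEC replicate 1 and control replicate 3, the AG181028 pair, correlated at 0.45. For NEC replicate 2 and control replicate 3 the value was -0.43.

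Single genes turned sign where they were not called. Ces2g was at 0.31 with the sample code, 1.86 within the AG181017 samples and between -1.38 and 1.36 with 1 library left out. Ugt2b34 and Ugt2b38 were at -0.20 and -0.021 within the AG181017 samples. Without both libraries with Xist counts Ces2b was at 0.66, Ces3a at -0.27 and Ces1c at 0.55. The adjusted p of Sult1a1 ran from 5.35e-07 to 0.428 over the 17 alternatives and its log2 fold change from 1.39 to 1.86. Counts in single digits in at least 1 library limit Ces1d, Ces1f, Ces1g, Ces2b, Ces2g, Ces3a, Ugt2b1 and Ugt2b37.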

Other observations

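The antisense gene Gm20528, whose exons overlap the Ugt1a genes on the opposite strand, held 50 counts over all 6 libraries, at 0.0629 CPM or below in NEC and 0.0718 to 0.341 CPM in control. The carboxylesterase pseudogene Ces2d-ps held 42 counts, at 0.199, 0.124 and 0.101 CPM in NEC and 0, 0 and 0.0475 CPM in control.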
